A study of Mus musculus with 16 samples.

Results

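Cytosolic ribosomal protein genes encode the proteins that, with ribosomal RNA, make up the small and large subunits of the ribosomes of the cytoplasm. They were taken here as the protein-coding genes whose symbol begins with Rps or Rpl and a number, together with Rpsa, Rplp0, Rplp1 and Rplp2, and without the Rps6k kinases. The rule gave 86 genes of the 53465 in the count table, 34 with small-subunit names and 52 with large-subunit names. They held 77 of the 79 canonical ribosomal proteins. The 9 others were the paralogs Rpl3l, Rpl7l1, Rpl10l, Rpl22l1, Rpl36al, Rpl39l and Rps27l, the Rps27 copy Rps27rt, and Rps19bp1, which encodes a protein that binds RPS19 and is not itself part of the ribosome.

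The cells were group 2 innate lymphoid cells (ILC2), tissue-resident lymphocytes that make type 2 cytokines, sorted for RNA sequencing from the first 5 cm of the small intestine of untreated C57BL/6 mice aged 6 to 10 weeks. The 16 libraries came from 4 genotypes with 4 libraries each. Wild type (WT) was set beside Alox5 KO, which lacks 5-lipoxygenase and so its leukotriene products, beside Il25 KO, which lacks the tuft cell cytokine IL-25, and beside St2 KO, which lacks the receptor for IL-33. All 4 groups carried the Il13 smart13/smart13 reporter allele, WT included, and the Il25 KO and St2 KO groups also carried Arg1 Yarg/Yarg, which WT and Alox5 KO did not. A difference between Il25 KO or St2 KO and WT therefore cannot be told apart from an effect of the Yarg allele, whereas Il25 KO and St2 KO share it. The sample codes began with TS for the first pair of replicates in every genotype; for replicates 3 and 4 they began with TT in WT and Alox5 KO, and with TY in the other 2 genotypes. The meaning of the letters and the number of mice behind the libraries are not given in the sources used here. P-values therefore reflect only how much the libraries of a genotype differ, which may be technical.

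Each ribosome carries 1 copy of nearly every ribosomal protein, so the genes are usually transcribed together and at high levels. Their mRNAs belong to the TOP class, which starts with a cytosine followed by a run of pyrimidines, and whose translation is switched by the mTOR pathway through LARP1. In mammals, processed pseudogenes of these genes are scattered through the genome in large numbers, and many of them still resemble the parent mRNA closely.

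Gene counts summed to between 2086864 (Alox5 KO 4) and 3216937 (St2 KO 2) per library. The 12 ILC2 marker genes summed to 5677 to 7906 CPM (counts divided by the library total and scaled to 1000000), with Gata3 at 527 CPM or more in every library. Markers of B and plasma cells summed to 412 to 1406 CPM, of T cells to 61.7 to 188 CPM, of myeloid cells to 157 to 344 CPM and of epithelium to 20.9 to 340 CPM. Cd8b1, S100a8, S100a9 and Dclk1 had no count in any library. The plasma cell sum was lowest in Alox5 KO 1, St2 KO 1 and Alox5 KO 2, at 412, 502 and 522 CPM. In bulk RNA, fewer cells of a type and less RNA per cell cannot be told apart.

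Ribosomal protein genes took a small and nearly fixed number of counts. All 86 had a count in at least 1 library, and 81 passed the expression filter and were tested; the 5 that did not were Rpl3l, Rpl10l, Rpl23a, Rpl39l and Rps27rt. Summed over the 86 genes, the WT libraries held 14789, 14516, 14739 and 13738 counts in replicate order. The Alox5 KO libraries held 15066, 15100, 13968 and 14980 counts. The Il25 KO libraries held 15245, 15236, 13704 and 13918 counts, and the St2 KO libraries 15773, 15703, 14169 and 14497. Over all sets the 4 genotypes overlapped, and the highest library stood 1.15 times above the lowest, whereas total counts differed 1.54-fold. Within set TS, the first pair of replicates, they did not overlap: 14516 and 14789 in WT, 15066 and 15100 in Alox5 KO, 15236 and 15245 in Il25 KO, 15703 and 15773 in St2 KO. The total counts of these libraries did not overlap between genotypes either. Totals were 2511731 and 2587732 in Alox5 KO and 2588981 and 2593258 in WT. Il25 KO had 2725814 and 2775381, and St2 KO 2965292 and 3216937. Each genotype had 2 libraries here, and the part of depth in the sums was not tested. In Alox5 KO, Il25 KO and St2 KO, but not in WT, both TS sums were above those of the later replicates.

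As a share of all counts, the 86 genes made up 0.562% ± 0.00692 in WT, 0.614% ± 0.0719 in Alox5 KO, 0.542% ± 0.0281 in Il25 KO and 0.509% ± 0.0195 in St2 KO (SD, n = 4 each). The shallowest library, Alox5 KO 4, had the highest share at 0.718%, and the deepest, St2 KO 2, had the lowest at 0.488%. Alox5 KO 4 had the highest CPM of all 16 libraries for 52 of the 81 tested genes. St2 KO 2 had the lowest for 20, Il25 KO 4 for 15, St2 KO 4 for 12 and Il25 KO 3 for 11. Large-subunit genes held 1.21 to 1.32 times as many counts as small-subunit genes in every library.

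**Figure D1:**
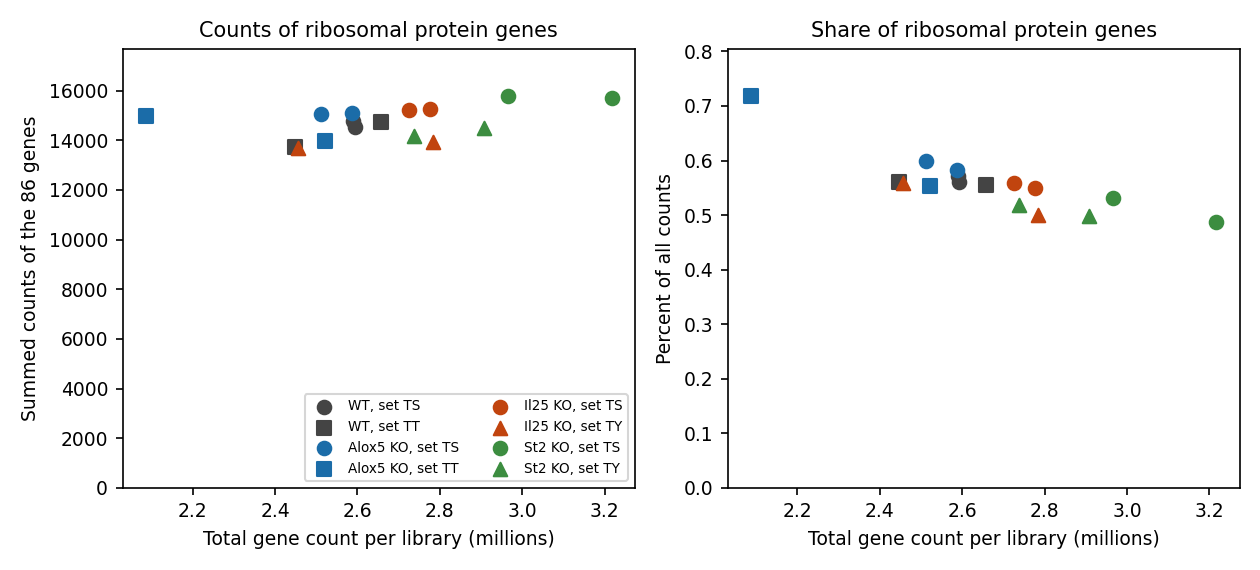
Summed counts of the 86 ribosomal protein genes (left) and their percent of all counts (right) against the total gene count of each library (axis in units of 1000000); each point is 1 library, colour gives the genotype and shape the sample-code set. The sums lie between 13704 and 15773 across the whole range of totals, so the percent is highest, 0.718%, in the library of lowest total and lowest, 0.488%, in that of highest total.

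Among small-subunit genes, Rps3, whose protein lies at the site where mRNA enters, was among the most counted. Rps3 (ENSMUSG00000030744, GRCm38 chr7:99477896-99483738, minus strand) had 1031, 1015, 1033 and 982 counts in WT, 1023, 1022, 970 and 999 in Alox5 KO, 1062, 1031, 1002 and 955 in Il25 KO, and 1065, 1034, 962 and 996 in St2 KO. It averaged 1003.5 to 1015 counts in the 4 genotypes, with SDs from 23.6 to 45.5 (n = 4 each). The counts of the 4 genotypes overlapped. Rps14 and Rps19, whose loss impairs red blood cell production, averaged 429.6 and 234.8 counts over the 16 libraries. Rps6, the phosphorylation target of the S6 kinases, averaged 33.6 counts, Rps27a, made as a fusion with ubiquitin, 64.5, and Rpsa, also known as a laminin receptor, 73.7.

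Among large-subunit genes, Rpl4 averaged 1329 counts and Rpl8 852.2. The stalk genes Rplp0, Rplp1 and Rplp2 encode the acidic proteins that recruit elongation factors. Rplp0 had 655, 616, 637 and 624 counts in WT and 634, 634, 609 and 624 in Alox5 KO. It had 633, 653, 630 and 607 counts in Il25 KO and 663, 638, 625 and 625 in St2 KO. The whole span of Rplp0 was 1.09-fold. Rplp1 averaged 276.3 counts and Rplp2 182.1. Rpl5 and Rpl11, which bind MDM2 and so stabilise p53 when ribosome assembly fails, averaged 39.4 and 41.8 counts. Rpl38, known for its part in translating Hox mRNAs, averaged 50.6, and Rpl13a, which has a separate role in interferon-driven translational silencing, 80.0.

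Per length, the levels differed widely between the genes. The length used was that of all annotated exons of a gene merged, which can exceed the length of a single mRNA. For Rps15a it was 6270 bases against 640 in its coding transcript, and for Rpl11 2697 against 833. For Rplp1 both were 499. Values per length therefore depend on the annotated isoforms as well as on the level. On the scale of CPM per kilobase of exon, Rpl4 at 251, Rpl8 at 237, Rplp1 at 210.1 and Rps15 at 176 were among the highest. Rpl4 ranked 67 and Rplp1 102 among the 11742 tested genes. The 5 lowest were Rpl24 at 2.76, Rpl5 at 3.76, Rpl36a at 5.17, Rpl28 at 5.33 and Rpl11 at 5.87. The median over the 81 genes was 19.6 CPM per exonic kilobase, against 10.5 in the other 11661 tested genes.

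Most single genes also had even counts between libraries, with exceptions given below. The variance between the 16 libraries divided by the mean, which is near 1 where counts differ by sampling noise alone, had a median of 1.69 over the 81 tested genes and 8.21 over the other tested genes. It was under 1 in 24 of the 81 genes, and in 0.986% of the other genes. Rpl19 (0.319), Rpl35 (0.337), Rps3a1 (0.374) and Rplp0 (0.384) were among the lowest. Rps3a1, a small-subunit protein gene, had 152, 148, 146 and 145 counts in WT, 148, 153, 154 and 160 in Alox5 KO, 167, 155, 155 and 148 in Il25 KO, and 167, 152, 141 and 144 in St2 KO, and the groups overlapped. In these 4 genes, picked here for their low ratios, the variance between libraries was below the mean count, that is, below what sampling noise gives on average. Sampling noise alone also puts some genes below 1, and the share it would put there was not computed.

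The counts of these genes also hardly followed sequencing depth. The slope of the log count on the log library total, which is 1 where counts grow in proportion to depth and 0 where they do not change, had a median of 0.13 in the 81 genes and of 1.16 in the other tested genes. It was below 0.5 in 63 of the 81 genes and in 23.6% of the others. Without Alox5 KO 4 the median slope of the 81 genes was 0.33. The 118 other genes with at least 0.5 counts per exonic base also had a low median slope, 0.30, but a median variance-to-mean ratio of 6.73. Only 4 of the ribosomal protein genes reached that density on the merged exon length. That length can be several times the mRNA (Rps9, 2522 bases against 751 in its coding transcript), so the number that reached it depends on the length used. The cause of the even counts was not tested, and any removal of duplicate reads before counting is not given in the sources used here. A count that does not follow depth gives a CPM that falls as depth rises, so fold changes of these genes on the CPM scale are set beside the library totals below.

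**Figure D2:**
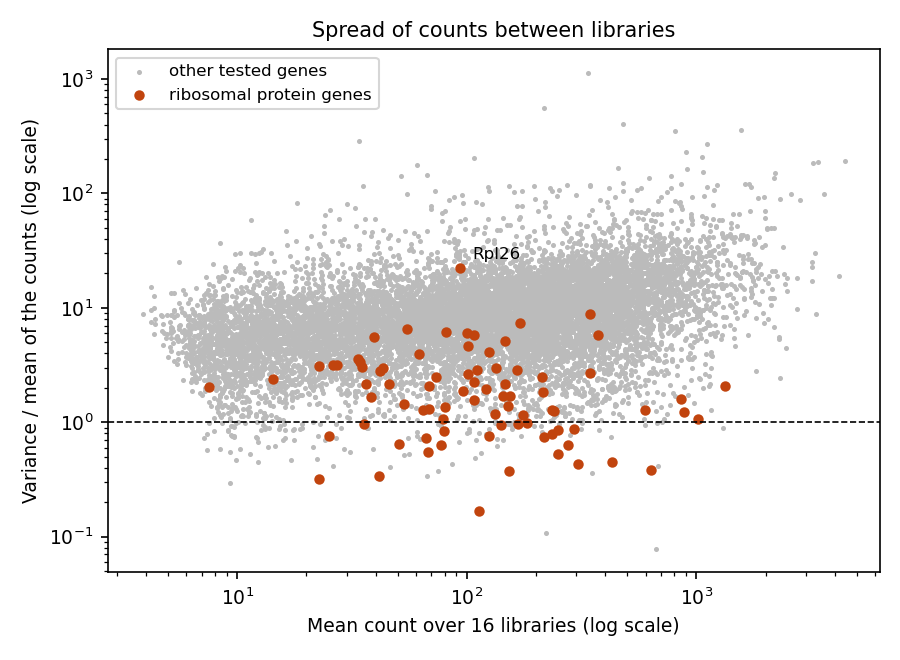
Variance divided by mean of the counts over 16 libraries (vertical, log scale) against the mean count (horizontal, log scale) for 11742 tested genes; red points are the 81 tested ribosomal protein genes, grey points the others, and the dashed line marks a ratio of 1. Most red points lie at the lower edge of the grey cloud, with a median of 1.69 against 8.21, and Rpl26 stands highest among them.

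A ratio above 5 was found in 10 of the 81 genes, namely Rpl26, Rps24, Rpl22l1, Rps12, Rpl10a, Rpl9, Rpl10, Rpl7l1, Rpl5 and Rps18. Rpl26 had the highest, 22.4, and it lay in the difference between Il25 KO and the other genotypes: over the 12 libraries that were not Il25 KO, its ratio was 0.302. Rps24, a small-subunit protein with alternative last exons, followed with 8.77. It had 342, 252, 367 and 313 counts in WT, 266, 369, 288 and 333 in Alox5 KO, 310, 367, 317 and 396 in Il25 KO, and 404, 467, 380 and 331 in St2 KO. Its slope on depth was 0.92, near that of the other genes, and its groups overlapped.

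Rpl26 was lower in every Il25 KO library than in any other library. RPL26 is a large-subunit protein near the exit of the peptide tunnel, known also for promoting translation of the p53 mRNA. Rpl26 (ENSMUSG00000060938, GRCm38 chr11:68901583-68906989, plus strand) had 14, 17, 18 and 19 counts in the 4 Il25 KO libraries. It had 119, 120, 117 and 121 counts in WT, 117, 130, 122 and 120 in Alox5 KO, and 105, 121, 117 and 112 in St2 KO. The Il25 KO libraries did not overlap with the 12 others, whose counts lay between 105 and 130.

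The mean level of Rpl26 was 6.36 ± 0.984 CPM in Il25 KO, 46.4 ± 2.24 in WT, 50.7 ± 4.79 in Alox5 KO and 38.6 ± 3.07 in St2 KO (SD, n = 4 each), so that Il25 KO held 14.1% of the mean of the other libraries. The log2 fold change was -2.89 (SE 0.277) against WT, with an adjusted p of 1.01e-05 by the quasi-likelihood test of edgeR. Against St2 KO, which shares the Yarg allele, it was -2.55 (SE 0.243), with an adjusted p of 4.69e-06 in edgeR. Within set TS alone, the values were -2.99 against WT (adjusted p = 0.0225) and -2.64 against St2 KO (adjusted p = 0.0250), both by edgeR. Within set TY alone, Il25 KO against St2 KO gave -2.48 (adjusted p = 0.0522 by edgeR), which missed the threshold with 2 libraries a group. Set TT held no Il25 KO library. In Alox5 KO and St2 KO against WT, Rpl26 did not pass the test (log2 fold changes of 0.13 and -0.34, adjusted p of 0.874 and 0.757 by edgeR).

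Rows named as Rpl26 pseudogenes held few counts in every genotype: the 6 rows summed to 0 to 3 counts per library, and to at most 3 in Il25 KO. Copies under other names were not summed. In the search of transcript windows described below, 28.7% of the Rpl26 windows were found in no other gene. A window of Rpl26 was shared by 12 other genes. Whether Rpl26 reads were counted on such copies in Il25 KO was not tested. Of the 36 tested genes within 1000000 bases of Rpl26, 1 was called in Il25 KO against WT, where 0.417% of all tested genes were; this was Myh10, in the opposite direction (log2 fold change of 2.88, adjusted p = 0.0386 in edgeR). In Il25 KO set against St2 KO, 2 of the 36 were called, Kdm6b and Myh10, where 1.24% of all tested genes were. The nearest tested neighbours, Ndel1 before it and Slc25a35 after it, had log2 fold changes of 0.27 and -1.09 and did not pass the test (adjusted p of 0.693 and 0.764 in edgeR). The median of the 36 neighbours was 0.03. Il25 KO 1, with 14 counts of Rpl26, had an epithelial marker sum of 340 CPM, and the other 3 Il25 KO libraries, with 17 to 19 counts, had 27.5 to 35.2 CPM.

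**Figure D3:**
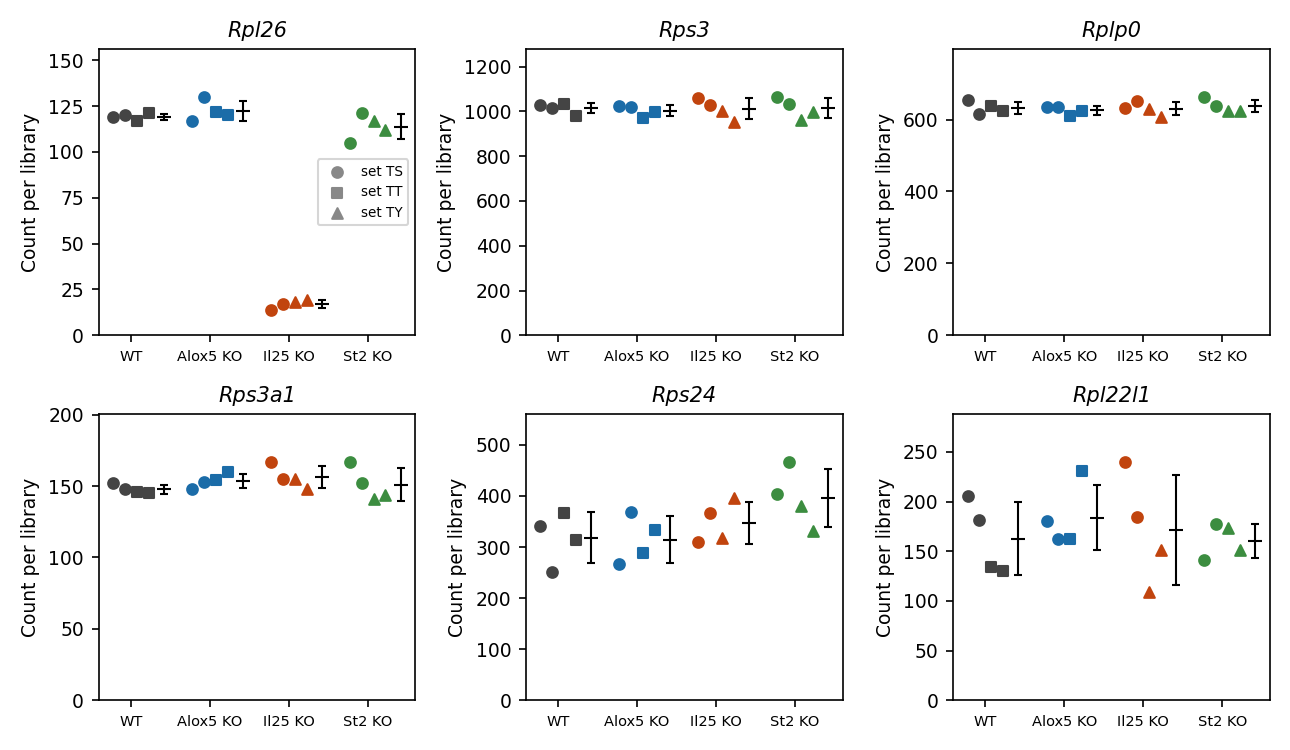
Counts per library of 6 ribosomal protein genes in the 4 genotypes, each panel with its own axis from 0; points are libraries in replicate order, shape gives the sample-code set, and the black bar is the mean with 1 SD (n = 4). Rpl26 sits between 14 and 19 in Il25 KO and between 105 and 130 elsewhere, Rps3, Rplp0 and Rps3a1 are nearly flat, and Rps24 and Rpl22l1 vary within every genotype.

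No other ribosomal protein gene passed the test in any of the 4 comparisons. In Alox5 KO against WT, 0 of the 81 genes were called by edgeR, against 0.102% of all tested genes, and 2 (Rps13 and Rps21) had an unadjusted p under 0.05, against 7.17% of all tested genes. In St2 KO against WT, 0 of 81 were called, where 0.298% of all genes were, and 0 had an unadjusted p under 0.05, where 7.49% did. In Il25 KO against WT, 1 of 81 was called, where 0.417% of all genes were, and 1 had an unadjusted p under 0.05, where 9.30% did. Il25 KO against St2 KO likewise gave 1 call of 81, where 1.24% of all genes were called, and 5 with an unadjusted p under 0.05, where 11.3% had one. Both calls were Rpl26. DESeq2 called the same numbers, 0, 0, 1 and 1 in that order. The standard errors of the 81 log2 fold changes had medians of 0.19 in Alox5 KO against WT and 0.22 in St2 KO against WT, so differences of that size were not detectable gene by gene.

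Among ribosomal protein genes whose fitted log2 CPM was 5 or more, the positive differences reached at most 0.59 on the log2 scale. Rps21, a small-subunit protein gene, had 143, 129, 138 and 133 counts in WT and 167, 158, 160 and 183 in Alox5 KO, with a log2 fold change of 0.40 (SE 0.150) and an adjusted p of 0.579 in edgeR. Rps13 had 95, 84, 102 and 82 counts in WT and 138, 105, 111 and 110 in Alox5 KO, with a log2 fold change of 0.45 (SE 0.179) and an adjusted p of 0.618 in edgeR. Rpl21 had the largest positive difference among the better counted genes in Il25 KO against St2 KO, 0.59 on the log2 scale (adjusted p = 0.302 in edgeR), with 115, 132, 97 and 106 counts in Il25 KO and 89, 95, 80 and 75 in St2 KO. Rpl10 had the largest positive difference among these genes in St2 KO against WT, 0.47 (adjusted p = 0.709 in edgeR), with 153, 131, 146 and 115 counts in St2 KO and 97, 77, 100 and 81 in WT. In these 4 genes, named for their large differences, the raw counts of the groups compared did not overlap, and none of the 4 differences passed the test over all genes. The share of all tested genes whose counts separate in this way was not computed. Raw counts also carry depth: mean totals were 2956623 in St2 KO and 2571724 in WT, and the slope of Rpl10 on depth was 1.36.

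The median log2 fold change of the 81 genes was 0.15 in Alox5 KO against WT (74 above 0 and 7 below), 0.04 for Il25 KO against WT (46 and 35), -0.14 in St2 KO against WT (24 and 57) and 0.16 in Il25 KO against St2 KO (63 and 18). The medians of all tested genes lay between -0.01 and 0.01. The 118 other genes with at least 0.5 counts per exonic base had medians of 0.08 in Alox5 KO against WT (98 above 0 and 20 below), -0.004 in Il25 KO against WT (58 and 60), -0.17 in St2 KO against WT (10 and 108) and 0.16 in Il25 KO set against St2 KO (106 and 12), so shifts of like size were found outside the ribosomal protein genes. These 118 genes were not an unchanged background. In edgeR, 6 were called lower in St2 KO against WT, where 0.298% of all tested genes were called. Between Il25 KO and St2 KO, 10 were called higher and 1 lower, where 1.24% of all were called. In Alox5 KO and in Il25 KO against WT, 1 each was called lower. Mean library totals were 2426942 in Alox5 KO, 2571724 in WT, 2685023 in Il25 KO and 2956623 in St2 KO. The median was above 0 where the total was below that of WT (Alox5 KO) and below 0 where it was highest (St2 KO), but Il25 KO had a higher total than WT and a median of 0.04; the part of depth in the medians was not tested. Without Alox5 KO 4, the library of lowest total, the median in Alox5 KO against WT was 0.04. On counts with no scaling for depth, a setting chosen after the data were seen, the genes split 55 above to 26 below 0 in Alox5 KO against WT, 60 to 21 in Il25 KO against WT, 68 to 13 in St2 KO against WT, and 31 to 50 in Il25 KO against St2 KO. That setting moved the median of all genes by up to 0.22, and relative to it the 81 genes stood at -0.16 in St2 KO against WT, against -0.15 with scaling. Because it shifts all genes of a comparison by nearly the same amount, the changed splits follow from the setting itself. They do not measure the part of depth. The comparisons with WT share the same 4 WT libraries.

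**Figure D4:**
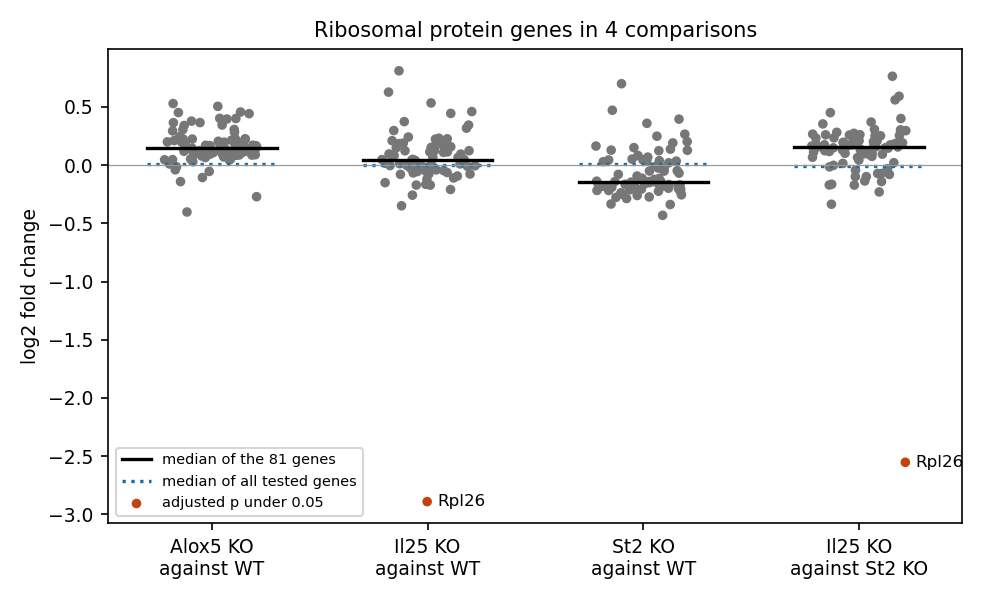
log2 fold changes of the 81 tested ribosomal protein genes in 4 comparisons; each point is a gene, red marks an adjusted p under 0.05 in edgeR, the solid line is their median and the dotted line the median of all 11742 tested genes. Rpl26 is the only red point, at -2.89 (Il25 KO against WT) and -2.55 (Il25 KO set against St2 KO); the other points lie between -0.43 and 0.81.

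Several ribosomal proteins have paralogs that can take their place, and these were counted beside the main gene. Rpl22l1, the paralog of Rpl22, a gene that T cell development depends on, held 32.9% of the counts of the pair over all libraries, with 27.1% in the lowest and 42.2% in the highest library. It had 206, 181, 134 and 130 counts in WT, 180, 162, 162 and 231 in Alox5 KO, 240, 184, 109 and 151 in Il25 KO, and 141, 177, 173 and 151 in St2 KO. The groups overlapped, and the pair's share was 31.5% to 34.0% in the 4 genotypes. Rpl22 itself varied less, with 285 to 382 counts per library.

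Rps27l, a p53-induced paralog of Rps27, held 79.5% of the counts of that pair, and Rps27l counts lay between 147 and 188. The counted share is not a share of mRNA where the genes differ in unique sequence: 86.3% of the 50-base windows of Rps27l and 1.35% of those of Rps27 were found in no other gene. Rpl7l1, which takes part in large-subunit assembly, held 60.0% of its pair with Rpl7. Rpl36al held 60.7% of its pair with Rpl36a, in which WT 3 had 37 Rpl36a counts and the other WT libraries 17 each. Rpl39l, known mainly from the testis, held 3.75% of its pair with Rpl39, at 0 to 8 counts per library. The muscle paralog Rpl3l had 2 counts and the testis paralog Rpl10l 1 count over all 16 libraries.

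Most of the 86 genes shared stretches of sequence with other genes, and the same values were not computed for genes outside the 86. Each 50-base window of a gene's transcript was searched in the transcripts of all other genes of the GENCODE annotation on GRCm38. The median gene had 39.4% of its windows in no other gene, and 51 of the 86 genes had less than 50%. Rpl3l, Rpl39l and Rps19bp1 were among those that shared none. The most shared coding windows mark the most repeated stretch of each gene, not how much of the gene is shared. They are printed 5′ to 3′ without capitals, since every base is shared. The Rpl7a window covers bases 429 to 478 of the coding sequence and was found in 45 other genes, the Rpl21 window bases 96 to 145 and 44 genes, the Rps2 window bases 653 to 702 and 33 genes, and the Rpl26 window bases 79 to 128 and 6 genes.
Rpl7a: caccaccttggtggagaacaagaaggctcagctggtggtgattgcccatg
Rpl21: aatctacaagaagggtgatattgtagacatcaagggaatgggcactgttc
Rps2: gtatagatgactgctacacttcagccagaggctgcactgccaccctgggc
Rpl26: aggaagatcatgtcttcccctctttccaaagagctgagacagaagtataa

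The counts were higher in genes with more unique sequence, as a description across genes that also differ in length and level. The 24 tested genes with less than 25% unique windows had a median mean count of 61.6, the 46 with 25% to 75% had 122.5, and the 11 with 75% or more had 345. Rps3 (97.0%), Rpl8 (92.1%) and Rpl4 (83.5%) were among the most counted. Rpl23a, whose protein lies at the tunnel exit, had 14.3% unique windows and 0 to 5 counts per library, too few to be tested, and Rpl24, with 18.3%, averaged 7.5 counts. Exceptions were the low-count paralogs Rpl3l, Rpl39l and Rpl10l, with 92.4% or more. The 288 rows named as pseudogenes of these genes, with a symbol ending in -ps or -ps and a number, held 252 to 391 counts per library. Copies under other names were not summed, and Rpl7a alone shared a window with 123 other genes, so the counts of all copies are not known here. The treatment of reads with several matches is not given in the sources used here, so levels of the 51 genes with less than 50% unique windows are uncertain.

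**Figure D5:**
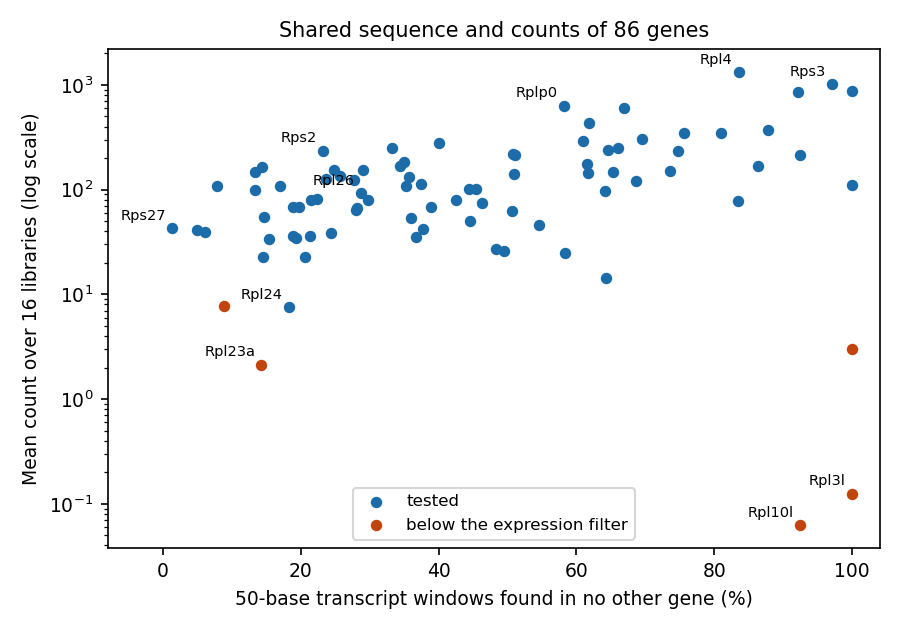
Mean count over 16 libraries (vertical, log scale) of the 86 ribosomal protein genes against the percent of 50-base transcript windows found in no other gene (horizontal); blue points were tested and red points fell below the expression filter. Tested genes with 75% or more unique windows have a median of 345 counts, against 61.6 for those under 25%.

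The start sites carried the TOP feature more often than those of other genes. RefSeq promoters (GRCm38.p6) from 250 bases before to 50 after the start were matched by symbol for 66 of the 86 genes. A C at the annotated start followed by at least 4 C or T was found in 14 of the 66 (21.2%), in 2.92% of 8588 other tested genes and in 3.01% of all 27025 genes with a promoter. With the C allowed within 5 bases of the start, the numbers were 30 of 66 (45.5%), 23.6% and 21.2%. ACTTCCG or its reverse complement CGGAAGT was found anywhere in the window in 34.8% of the 66, in 16.4% of the other tested genes and in 7.20% of all. Windows of 15 bases on each side of the start are given 5′ to 3′ for 2 genes with a pyrimidine run at the start, for Rpl22l1, a paralog whose run begins downstream of the start, at position 4 counted from the start as 1, and for Rpl26, the gene that was lower in Il25 KO, whose window had no such run; capitals mark the run. They lie at chr11:114668565-114668594 (plus strand, Rpl38), chr7:118116133-118116162 (minus strand, Rps15a), chr3:28805493-28805522 (plus strand, Rpl22l1) and chr11:68901551-68901580 (plus strand, Rpl26).
Rpl38: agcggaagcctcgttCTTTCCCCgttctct
Rps15a: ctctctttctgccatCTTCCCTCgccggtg
Rpl22l1: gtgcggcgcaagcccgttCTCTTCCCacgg
Rpl26: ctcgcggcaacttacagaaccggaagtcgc

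Of 39 initiation factors, 11 elongation and release factors, 18 other TOP mRNAs and hosts of small nucleolar RNAs, 61 ribosome biogenesis genes, 77 mitochondrial ribosomal protein genes and 19 regulators of ribosome production, 0 were called by edgeR in any of the 4 comparisons. With 0.102% to 1.24% of all tested genes called, lists of these sizes would hold few calls or none at that rate. In St2 KO against WT, the median log2 fold change was -0.15 in the elongation and release factors, -0.08 in the initiation factors, -0.01 in the other TOP mRNAs and 0.11 in the biogenesis genes, beside -0.14 in the ribosomal protein genes. The other TOP mRNAs also had even counts, with a median variance-to-mean ratio of 2.95 and a median slope on depth of 0.18. Mitochondrial ribosomal protein genes, whose products work in a separate ribosome, had 3.93 and 0.62. Ribosome biogenesis genes had 10.5 and 1.29, beside 8.21 and 1.16 in the tested genes outside the ribosomal proteins.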

How the data were processed

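The authors deposited 1 table of raw counts per gene for the 16 libraries, not scaled for depth or length. The submitters' processing notes name Picard 1.134, FastQC 0.11.3, HTSeq 0.4.1, STAR 2.4.2a and the build GRCm38, without their roles or settings. Per the labels' protocols, libraries were made with Nextera XT, which does not mark strand, so overlapping genes cannot be told apart. Of 53471 rows, 6 with a repeated identifier were dropped; 3433 rows without a symbol held 0.184% of counts and were kept.

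Counts were tested with the quasi-likelihood test of edgeR 4.0.16 in R 4.3.3 (TMM scaling, default expression filter over the genotypes, robust, genotype and sample-code set as terms, 10 residual degrees of freedom), which tested 11742 genes. P-values were adjusted by the Benjamini-Hochberg method over all of them, with a threshold of 0.05. The standard errors (SE) were derived from this test, as the absolute log2 fold change divided by the square root of its F statistic. The procedure was tested on simulated data. CPM used the column totals, and exon lengths and positions came from GENCODE on GRCm38. Genes were named by a written rule: those called, the 3 highest and 3 lowest differences per comparison, the 5 highest and lowest levels per length, paralogs, and genes with a separate known role; Rps24, Rpl19, Rpl35, Rps3a1, Rps12, Rpl10a, Rpl23a, the most counted genes and those in the sequence examples were added after their values were seen. Some genes are not reported here. The genes and lists were chosen with earlier results of these data known. Alternatives covered scaling, filter, tool (DESeq2 1.42.0), model terms, sets, single libraries and pseudogene rows.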

Additional observations from a re-analysis of the deposited data

Results flagged for a closer look

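In 12 of the 176 groups of 4 libraries examined, 1 library lay far from the other 3 by Dixon's test (the gap to the nearest other library as a fraction of the group's range); chance gives about 1 in 20. The summed counts of the 86 genes in Alox5 KO were lowest in Alox5 KO 3 (13968, the others 14980 to 15100; gap 0.894 of the range). The share of counts in Il25 KO was lowest in Il25 KO 4 (0.49999%, the others 0.549% to 0.559%; 0.836). In Alox5 KO, the shallowest library, Alox5 KO 4, was highest for Rpl9 (53.2 CPM, the others 31.7 to 32.5; 0.966), Rps19 (122.7, the others 89.6 to 93.1; 0.894) and Rpl38 (32.6, the others 19.4 to 21.3; 0.862). Rpsa was highest in Alox5 KO 2 (34.8 CPM, the others 24.6 to 25.5; 0.913).

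In WT, Rpl36a was highest in WT 3 (13.9 CPM, the others 6.56 to 6.95; 0.947) and Rpsa in WT 2 (31.2, the others 26.7 to 27.1; 0.903). In Il25 KO, Rpl28 was highest in Il25 KO 3 (18.7 CPM, the others 11.1 to 11.4; 0.969) and Rps4x lowest in Il25 KO 1 (45.4, the others 49.9 to 50.3; 0.918). In St2 KO, Rpl5 was highest in St2 KO 1 (24.3 CPM, the others 10.3 to 12.1; 0.871) and Rps27a in St2 KO 3 (28.1, the others 21.2 to 21.8; 0.925).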

How the results depend on the processing

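The count of called genes stayed at 0 in Alox5 KO against WT and in St2 KO against WT, and at 1 in Il25 KO against WT, under all 30, 29 and 29 alternatives run. In Il25 KO against St2 KO it was 1 in 29 of 30 and 0 in set TY alone, where Rpl26 had a log2 fold change of -2.48 and an adjusted p of 0.0522 in edgeR. Over its alternatives, Rpl26 lay between -2.99 and -2.79 against WT and between -2.73 and -2.47 against St2 KO. Of 4782 values of single genes, 4781 kept their side of the threshold. Only Rpl26 passed it in the main fit, so this number says little about the size or sign of the other differences. Rpl22l1 in Alox5 KO against WT, for example, ranged from -0.15 to 0.76 on the log2 scale over its alternatives. Leaving out single libraries, the median log2 fold change of the 81 genes ranged from 0.044 to 0.23 in Alox5 KO against WT, from -0.02 to 0.08 in Il25 KO against WT, from -0.19 to -0.09 in St2 KO against WT and from 0.13 to 0.24 between Il25 KO and St2 KO. With no scaling for depth, added with the single sets TT and TY after the data were seen, the medians were 0.043 in Alox5 KO against WT, 0.082 in St2 KO against WT and -0.027 between Il25 KO and St2 KO. The WT share was 0.580% of protein-coding counts and 0.574% with the rows named as pseudogenes added. Replicate numbers do not pair the samples (correlations of deviations from -0.04 to 0.20); with the replicate block, Rpl26 stood at -2.83 (adjusted p = 2.73e-06 in edgeR) against WT and -2.55 (8.86e-06) against St2 KO, and no count of called genes changed. Low counts limit precision: Rpl24, averaging 7.5 counts, had standard errors of 0.65 to 0.84 on the log2 scale.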
